A study of Homo sapiens with 12 samples.

Results

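The genes described here belong to extracellular proteolysis, and were measured in KYSE150, a cell line from an esophageal squamous cell carcinoma. The set was PLAU, PLAUR, PLAT, SERPINB2, MMP1, MMP9, MMP14, MMP24 and TIMP1, taken by their symbols from the table of counts, 9 of its 24302 features, each present in 1 row. These genes were chosen with earlier results of these data known. RNA sequencing covered 12 libraries, 3 in each of 4 groups, and the question behind the series was which genes respond to phase separation of TFAP2β. The gene TFAP2B encodes TFAP2β, an AP-2 transcription factor. WT cells overexpressed TFAP2β of normal sequence fused to GFP, Mut_IDR3 cells a GFP fusion of a form labelled Mut_IDR3, and dIDR3 cells a GFP fusion of a form labelled ΔIDR3. The sign Δ usually marks a deletion, and IDR stands for intrinsically disordered region. The series calls these mutants deficient in liquid-liquid phase separation, and the control cells carried GFP alone. All groups shared the parental line and GFP. The labels do not say how the constructs were delivered, whether a group is a single clone, or whether replicates came from separate cultures. The p-values therefore refer to the spread between these libraries alone, which may be technical.

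Plasmin cleaves fibrin and many matrix proteins and activates several pro-metalloproteinases, and it is made from plasminogen by the serine proteases urokinase (PLAU) and tissue plasminogen activator (PLAT). The receptor uPAR (PLAUR) holds urokinase at the cell surface, while the serpin PAI-2 (SERPINB2) inhibits urokinase and tissue activator. Matrix metalloproteinases are zinc endopeptidases: MMP1 is an interstitial collagenase, MMP9 a gelatinase, and MMP14 (MT1-MMP) and MMP24 (MT5-MMP) sit in the membrane. TIMP1 and TIMP2 are tissue inhibitors of metalloproteinases, TIMP2 also takes part in the activation of pro-MMP2 by MMP14, and the receptor and several of these enzymes are widely studied in the invasion of squamous carcinomas.

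The libraries held 30.7 to 43.5 M counts. TFAP2B, which checks the constructs, reached 285, 232 and 323 CPM (counts scaled to the library size, itself adjusted by TMM) in WT, 687, 732 and 687 CPM in Mut_IDR3, 739, 742 and 632 CPM in dIDR3, and at most 0.279 CPM in the GFP libraries. It was 2.50-fold higher in Mut_IDR3 and 2.51-fold higher in dIDR3 than in WT (adjusted p = 5.11e-07 and 3.07e-07, edgeR's quasi-likelihood test), so the altered sequence and the higher level of the construct cannot be told apart in any comparison of a mutant with WT. All 9 squamous epithelial markers had counts, and their summed level was 7160 to 8320 CPM in WT, 5600 to 5740 CPM in Mut_IDR3, 4780 to 5030 CPM in dIDR3 and 5550 to 5780 CPM in GFP. The sum does not stand for each marker. At an adjusted p under 0.05, 4 of the 9 were higher and 3 lower in WT against GFP, where 27.7% of all genes were higher and 27.1% lower. The 11 fibroblast markers summed to 11.5 to 12.8 CPM in WT, 13.5 to 16.8 CPM in Mut_IDR3, 11.9 to 14.9 CPM in dIDR3 and 15.6 to 16.7 CPM in GFP, with THY1 and FAP at 0. The 10 markers of leukocytes and endothelium summed to 82.1 to 104 CPM in WT, 51.3 to 57.4 CPM in Mut_IDR3, 49.9 to 51.5 CPM in dIDR3 and 70.3 to 75.5 CPM in GFP, nearly all of it CD68, with PTPRC, PECAM1 and KDR at 0. The part of these markers in the results was not tested. In such bulk libraries fewer cells that express a gene and less of its RNA per cell cannot be told apart.

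In WT against GFP, the urokinase receptor, urokinase itself, PAI-2, both membrane metalloproteinases and TIMP1 were higher, while tissue plasminogen activator was lower. Of the 9 genes 8 passed the filter on low counts, and 7 of these were called at an adjusted p under 0.05, 6 higher and PLAT lower, where 54.9% of all 14792 tested genes were called, 27.7% higher and 27.1% lower. A change of at least 2-fold was found for PLAUR, SERPINB2, MMP24, PLAU and TIMP1, 5 of the 8, all higher, where 4.18% of all genes rose by that much. The median log2 fold change of the 8 tested genes was 1.41, beside −0.01 over all tested genes. Because the genes were chosen with earlier results of these data known, such shares and medians describe the choice and are no test. The 3 WT libraries did not overlap the 3 GFP libraries for 7 of the 8 genes, and for 59.4% of all genes.

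Cells with a mutant had less of the urokinase receptor, urokinase, PAI-2, MMP14 and TIMP1 than WT, and more tissue plasminogen activator. In Mut_IDR3 against WT, 7 of the 8 tested genes were called, where 44.1% of all genes were: PLAUR, PLAU, SERPINB2, MMP14, MMP24 and TIMP1 were lower (20.9% of all genes were called lower) and PLAT was higher (23.2%). In dIDR3 against WT the call was made for 7 of the 8 as well, where 52.3% of all genes were called: PLAUR, PLAU, SERPINB2, MMP14 and TIMP1 were lower (25.0% of all genes) and PLAT and MMP24 higher (27.2%). The calls of PLAT in dIDR3 and of MMP24 in Mut_IDR3 were less firm, each kept in 18 of 26 alternatives. In each mutant PLAUR, SERPINB2, PLAU and TIMP1 were lower than in WT by at least 2-fold, 4 of the 8, against 3.77% of all genes in Mut_IDR3 and 5.19% in dIDR3. The medians of the 8 genes were −1.02 in Mut_IDR3 and −1.0 in dIDR3, beside 0.03 over all genes in each comparison. Here too the shares and medians describe a set chosen with earlier results known. Both comparisons use the same WT libraries; the comparison of WT with GFP shares them too.

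Between a mutant and GFP the share of the genes called was near that of all genes. In Mut_IDR3 against GFP, MMP24 and TIMP1 were higher, 2 of the 8 tested genes, where 21.1% of all genes were called and 11.2% were higher. The call of MMP24 was lost without Mut_IDR3 replicate 2 or 3 or GFP replicate 2 or 3, which left 1 gene called. In dIDR3 against GFP, MMP24, TIMP1 and PLAU were higher, 3 of the 8, where 29.0% of all genes were called and 15.6% were higher. Between Mut_IDR3 and dIDR3, 2 of the 8 genes were called, where 10.8% of all genes were. PLAT was higher in Mut_IDR3 (5.54% of all genes) and MMP24 lower (5.24%). The call of PLAT was lost without Mut_IDR3 replicate 2 or 3 or any of the dIDR3 replicates, which left 1 gene called. The medians of the 8 genes were 0.09, 0.14 and −0.07 in these 3 comparisons, beside −0.01, −0.02 and −0.01 over all genes.

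**Figure D1:**
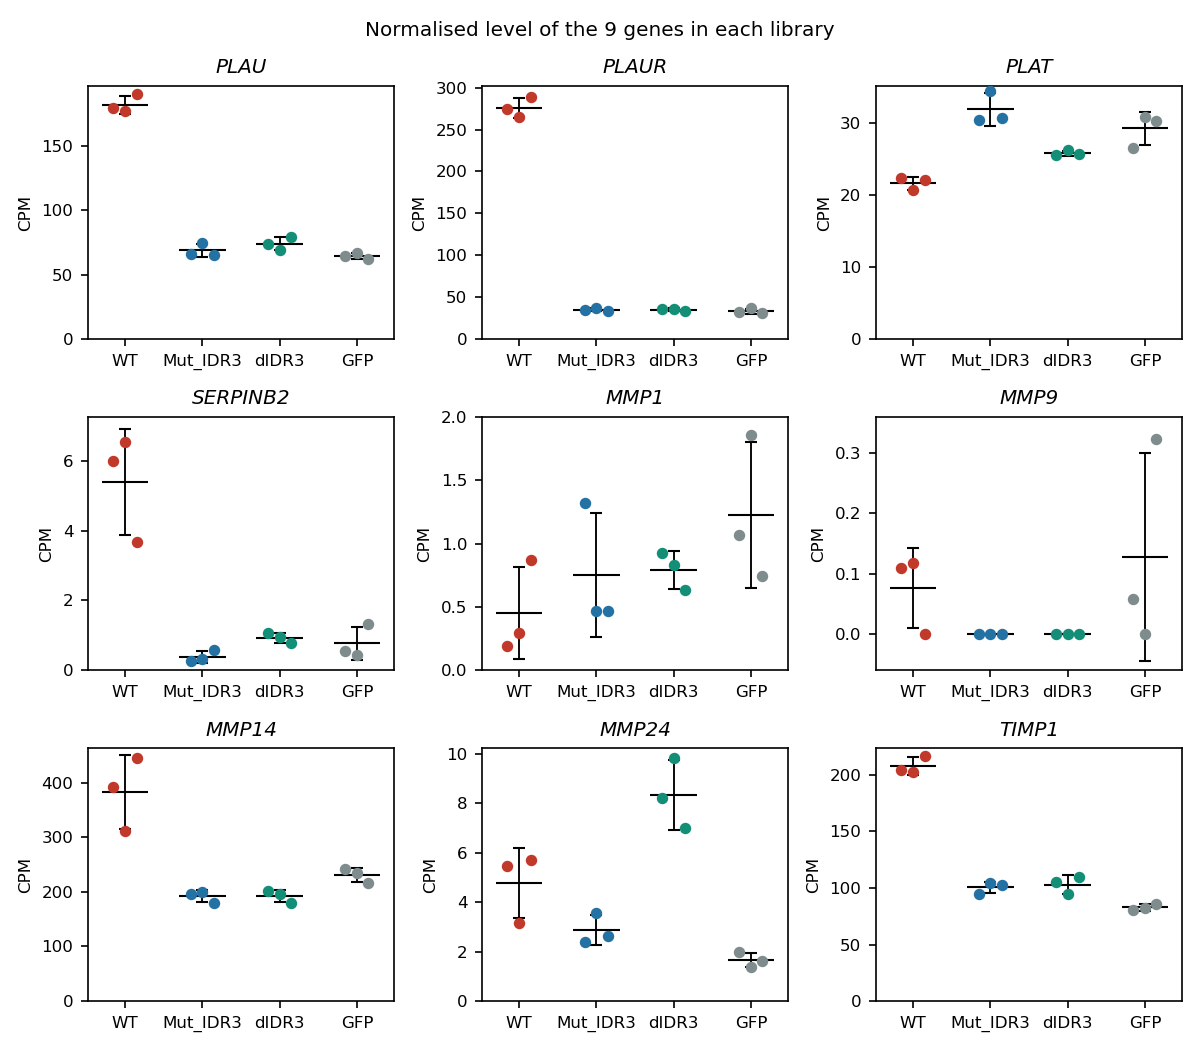
Level of each of the 9 genes in every library, in CPM on a linear axis from 0 (the axis for MMP9 begins below 0 so that its libraries at 0 can be seen). Points are libraries, 3 a group, in the order WT, Mut_IDR3, dIDR3 and GFP; the line is the group mean and the bar the SD. PLAUR lies at 265 to 289 CPM in WT and at 30.7 to 37.1 CPM in all other libraries.

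PLAUR (GRCh38 chr19:43646095-43670547, minus strand), which encodes the urokinase receptor, was with SERPINB2 among those of the 8 tested genes that rose most in WT against GFP. It was at 274, 265 and 289 CPM in WT, at 34.7, 37.1 and 33.6 CPM in Mut_IDR3, at 36.3, 35.6 and 33.3 CPM in dIDR3, and at 32.2, 36.5 and 30.7 CPM in GFP. Every WT library was far above the other 9, which overlapped each other. PLAUR was 8.33-fold higher in WT than in GFP (log2 3.06 ± 0.07 SE, adjusted p = 1.58e-13, edgeR). It was 7.85-fold lower in Mut_IDR3 than in WT (log2 −2.97, adjusted p = 1.99e-13) and 7.86-fold lower in dIDR3 than in WT (log2 −2.98, adjusted p = 2.14e-13). Against GFP the log2 difference was 0.09 in Mut_IDR3 (95% interval −0.06 to 0.23, adjusted p = 0.425) and 0.08 in dIDR3 (−0.07 to 0.23, adjusted p = 0.399), intervals that leave room for a difference of up to 0.23 on the log2 scale. Between Mut_IDR3 and dIDR3 the interval was −0.15 to 0.15.

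PLAU (chr10:73909177-73917497, plus strand), which encodes urokinase, was at 179, 177 and 190 CPM in WT, at 66.3, 74.9 and 65.1 CPM in Mut_IDR3, at 73.4, 69.0 and 79.1 CPM in dIDR3, and at 64.1, 66.8 and 62.2 CPM in GFP. The WT libraries again stood above all others. PLAU was 2.83-fold higher in WT than in GFP (log2 1.5 ± 0.07 SE, adjusted p = 2.43e-10, edgeR). It was 2.65-fold lower in Mut_IDR3 than in WT (adjusted p = 5.72e-10) and 2.47-fold lower in dIDR3 than in WT (adjusted p = 1.03e-09). In dIDR3 it was 1.15-fold higher than in GFP (log2 0.20, adjusted p = 0.0367) with no overlap of the libraries, but the call was lost in 16 of 26 alternatives. Its adjusted p was 0.209 without dIDR3 replicate 3, 0.163 without GFP replicate 3, 0.11 without GFP replicate 1, 0.104 without dIDR3 replicate 1, 0.0689 without GFP replicate 2 and 0.0617 without Mut_IDR3 replicate 1. Mut_IDR3 differed from GFP by 0.10 on the log2 scale (95% interval −0.05 to 0.24, adjusted p = 0.338). Exons of C10orf55 cover 916 bases of those of PLAU (31.1%) on the opposite strand, and the strand used in counting was not given. C10orf55 held 1099 counts in the 12 libraries together and was not called in WT against GFP (adjusted p = 0.308).

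PLAT (chr8:42175233-42207724, minus strand), which encodes tissue plasminogen activator, was the 1 gene of the 8 called lower in WT than in GFP. It was at 22.3, 20.6 and 22.0 CPM in WT, at 30.4, 34.4 and 30.7 CPM in Mut_IDR3, at 25.5, 26.2 and 25.6 CPM in dIDR3, and at 26.5, 30.8 and 30.3 CPM in GFP. The WT libraries were the lowest of the 12, and those of dIDR3 lay between them and GFP without overlap. PLAT was 1.35-fold lower in WT than in GFP (log2 −0.43 ± 0.08 SE, adjusted p = 0.000372, edgeR) and 1.47-fold higher in Mut_IDR3 than in WT (log2 0.56, adjusted p = 6.95e-05). In dIDR3 it was 1.19-fold higher than in WT (log2 0.25, adjusted p = 0.0186). This did not hold without WT replicate 2 (adjusted p = 0.0523), dIDR3 replicate 2 (0.0791) or dIDR3 replicate 3 (0.0562), nor once the trend of fold changes with GC content was removed (log2 0.12, adjusted p = 0.256). Mut_IDR3 was 1.24-fold higher than dIDR3 (log2 0.31 ± 0.08 SE, adjusted p = 0.026) in PLAT. That adjusted p was 0.123 without Mut_IDR3 replicate 2, 0.0512 without Mut_IDR3 replicate 3, and 0.0572, 0.0649 and 0.0660 without dIDR3 replicate 1, 2 and 3. Against GFP, PLAT was not called in Mut_IDR3 (log2 0.13, adjusted p = 0.294) or in dIDR3 (log2 −0.18, adjusted p = 0.11), though without GFP replicate 1 it was in dIDR3 (log2 −0.26, adjusted p = 0.0382).

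SERPINB2 (chr18:63871692-63903890, plus strand), which encodes the urokinase inhibitor PAI-2, had few counts outside WT. The libraries held 218, 221 and 152 counts in WT, 8, 12 and 25 in Mut_IDR3, 42, 36 and 32 in dIDR3, and 19, 14 and 57 in GFP. As levels these were 6.0, 6.54 and 3.67 CPM in WT, 0.257, 0.313 and 0.580 CPM in Mut_IDR3, 1.05, 0.935 and 0.774 CPM in dIDR3, and 0.550, 0.435 and 1.32 CPM in GFP. WT lay above every other library, Mut_IDR3 below every dIDR3 library, and GFP overlapped both mutants. SERPINB2 was 6.89-fold higher in WT than in GFP (log2 2.78 ± 0.40 SE, adjusted p = 3.28e-05, edgeR). The gene was 13.7-fold lower in Mut_IDR3 than in WT (log2 −3.78, adjusted p = 6.85e-06) and 5.86-fold lower in dIDR3 than in WT (log2 −2.55, adjusted p = 7.33e-05). Mut_IDR3 against dIDR3 was at log2 −1.23 (95% interval −2.15 to −0.30, adjusted p = 0.0853), not called by edgeR, though it was by DESeq2 (adjusted p = 0.0413) and by edgeR without GFP replicate 3 (adjusted p = 0.0494). Against GFP, SERPINB2 was called in neither Mut_IDR3 (log2 −0.99, 95% interval −1.93 to −0.06, adjusted p = 0.122) nor dIDR3 (log2 0.23, −0.64 to 1.10, adjusted p = 0.714). Exons of SERPINB10, a neighbouring serpin gene on the same strand, share 547 bases with those of SERPINB2, and SERPINB10 held 16 counts in all libraries.

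Promoter windows, from 250 bases before to 50 bases after the annotated start, were taken from RefSeq on GRCh38.p14 for the genes that rose in WT against GFP; RefSeq windows were matched for 6 of the 9 genes. They are shown as a description, because AP-2 factors bind GC-rich palindromes. Binding to these windows was not measured, and the part of such cores in the changes was not tested. Capitals mark a match to GCCNNNGGC (an AP-2 core) or TGANTCA (an AP-1 core), searched on both strands, each of which reads the same on either strand; an NF-kB core was searched too and was found in none of these windows. The windows below are printed 5′ to 3′ on the gene's own strand. They are PLAUR chr19:43670120-43670419 (minus), PLAU chr10:73910882-73911181 (plus, the second of its 2 starts), SERPINB2 chr18:63887455-63887754 (plus), MMP24 chr20:35226440-35226739 (plus) and TIMP1 chrX:47582186-47582485 (plus).
PLAUR: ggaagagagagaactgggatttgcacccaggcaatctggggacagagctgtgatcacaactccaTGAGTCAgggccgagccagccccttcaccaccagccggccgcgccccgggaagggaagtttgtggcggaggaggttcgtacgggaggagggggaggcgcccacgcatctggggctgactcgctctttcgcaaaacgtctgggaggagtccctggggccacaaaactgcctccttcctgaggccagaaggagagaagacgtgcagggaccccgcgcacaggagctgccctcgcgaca
PLAU: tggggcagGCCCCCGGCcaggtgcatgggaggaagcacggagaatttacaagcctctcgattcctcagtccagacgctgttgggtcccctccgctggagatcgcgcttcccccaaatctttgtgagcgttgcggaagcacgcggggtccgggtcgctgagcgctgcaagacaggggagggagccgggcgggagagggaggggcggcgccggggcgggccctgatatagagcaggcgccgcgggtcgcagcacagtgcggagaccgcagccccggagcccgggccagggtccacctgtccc
SERPINB2: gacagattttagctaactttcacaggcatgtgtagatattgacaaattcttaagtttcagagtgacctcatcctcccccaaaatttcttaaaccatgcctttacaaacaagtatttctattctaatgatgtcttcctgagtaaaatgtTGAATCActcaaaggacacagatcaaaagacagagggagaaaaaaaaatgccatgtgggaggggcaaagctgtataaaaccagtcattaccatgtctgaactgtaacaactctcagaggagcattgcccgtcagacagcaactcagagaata
MMP24: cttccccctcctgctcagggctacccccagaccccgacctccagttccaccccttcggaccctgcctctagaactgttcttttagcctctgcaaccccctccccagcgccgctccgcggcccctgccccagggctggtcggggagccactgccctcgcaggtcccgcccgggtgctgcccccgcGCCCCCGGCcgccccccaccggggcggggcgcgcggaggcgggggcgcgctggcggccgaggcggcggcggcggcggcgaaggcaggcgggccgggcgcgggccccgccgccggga
TIMP1: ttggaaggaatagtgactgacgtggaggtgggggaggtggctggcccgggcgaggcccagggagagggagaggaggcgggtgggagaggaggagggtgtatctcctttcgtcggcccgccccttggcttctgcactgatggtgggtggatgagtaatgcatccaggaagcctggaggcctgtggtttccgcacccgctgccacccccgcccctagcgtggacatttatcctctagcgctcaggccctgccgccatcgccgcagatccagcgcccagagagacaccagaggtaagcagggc

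An AP-1 core lay in the PLAUR window, first base at −186 from the annotated start, and in the SERPINB2 window, at −102; 7.71% of 35116 RefSeq promoter windows hold such a match. An AP-2 core lay in the second PLAU window, at −242, and in the MMP24 window, at −66; 23.2% of all windows hold that core. The windows of TIMP1 and MMP14 and the first window of PLAU held none of the cores, and the NF-kB core, present in 1.61% of all windows, was in none of the 7 windows of the 6 genes. The MMP14 window and the first PLAU window are not printed. No window held more than 1 match, so no matches overlapped. GC content was 39.0% in the window of SERPINB2, 64.0% in that of PLAUR, 65.0% in that of TIMP1, 70.0% in the second of PLAU and 80.0% in that of MMP24.

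MMP14 (chr14:22836557-22849027, plus strand), the membrane enzyme that activates pro-MMP2, was the metalloproteinase with the highest level. It was at 391, 311 and 445 CPM in WT, at 196, 200 and 179 CPM in Mut_IDR3, at 201, 196 and 179 CPM in dIDR3, and at 241, 234 and 216 CPM in GFP. WT libraries were the highest, GFP libraries came next, and the mutants lay below GFP without overlap. MMP14 was 1.66-fold higher in WT than in GFP (log2 0.73 ± 0.10 SE, adjusted p = 1.64e-05, edgeR), a value that fell to 0.41 with the GC trend removed (adjusted p = 6.54e-05). It was 2.00-fold lower in Mut_IDR3 than in WT (log2 −1.0, adjusted p = 1.64e-06) and 1.99-fold lower in dIDR3 than in WT (log2 −0.99, adjusted p = 1.02e-06). WT replicate 2 was lowest of the 3 WT libraries for MMP14 and also for TFAP2B (232 CPM), and the part of that in the spread was not tested.

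Below GFP, the mutants were at log2 −0.27 (Mut_IDR3, 95% interval −0.48 to −0.06, adjusted p = 0.0681, edgeR) and −0.26 (dIDR3, −0.47 to −0.05, adjusted p = 0.0573) for MMP14, neither called. These calls depended on the fit. In Mut_IDR3 the difference was called in 9 of 26 alternatives, among them DESeq2 (adjusted p = 0.0206), the removal of the GC trend (log2 −0.41, adjusted p = 0.000645) and the fits without WT replicate 2 (adjusted p = 0.0087) or WT replicate 3 (adjusted p = 0.0224). In dIDR3 it was called in 13 of 26, among them DESeq2 (adjusted p = 0.0156), the GC trend removed (log2 −0.36, adjusted p = 0.000506) and the fits without WT replicate 2 (adjusted p = 0.00622), without WT replicate 3 (adjusted p = 0.0179) or without GFP replicate 3 (adjusted p = 0.0463). In Mut_IDR3 against GFP, libraries that do not overlap were found for MMP14, MMP24 and TIMP1, 3 of the 8 genes, where 43.5% of all genes do not overlap.

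MMP24 (chr20:35226654-35277000, plus strand), which encodes a membrane metalloproteinase best known from the nervous system, had a pattern of its own among the 9 genes. It was at 5.48, 3.14 and 5.70 CPM in WT, at 2.41, 3.57 and 2.64 CPM in Mut_IDR3, at 8.21, 9.82 and 6.99 CPM in dIDR3, and at 1.97, 1.37 and 1.64 CPM in GFP. The dIDR3 libraries were the highest and the GFP libraries the lowest, while WT and Mut_IDR3 overlapped through WT replicate 2. MMP24 was 2.88-fold higher in WT than in GFP (log2 1.52 ± 0.25 SE, adjusted p = 0.000101, edgeR) and 5.01-fold higher in dIDR3 than in GFP (log2 2.33, adjusted p = 1.11e-05). Mut_IDR3 was 2.89-fold lower than dIDR3 (log2 −1.53 ± 0.24 SE, adjusted p = 0.00118), a difference called without any single library (largest adjusted p 0.00906).

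The other differences of MMP24 were less firm. In Mut_IDR3 it was 1.73-fold higher than in GFP (log2 0.79, adjusted p = 0.0367, edgeR). That adjusted p was 0.166 without Mut_IDR3 replicate 2, 0.0593 without Mut_IDR3 replicate 3, 0.126 without GFP replicate 2 and 0.106 without GFP replicate 3, 0.108 by limma-voom and 0.0639 with the GC trend removed. In Mut_IDR3 it was 1.66-fold lower than in WT (log2 −0.73, adjusted p = 0.0224). This had an adjusted p of 0.0859 without WT replicate 1, 0.0871 without WT replicate 3, 0.0794 without Mut_IDR3 replicate 1, 0.0761 without Mut_IDR3 replicate 3 and 0.0621 with the GC trend removed. In dIDR3 it was 1.74-fold higher than in WT (log2 0.80, adjusted p = 0.00954), which without dIDR3 replicate 2 was log2 0.65 (adjusted p = 0.0555). MMP24OS, a gene on the opposite strand, shares 799 exonic bases with MMP24 (18.1% of those of MMP24), so reads in the shared bases cannot be assigned to 1 of the 2 genes without a strand. It rose against GFP in WT (log2 0.74, adjusted p = 0.00825), in Mut_IDR3 (0.83, adjusted p = 0.0131) and in dIDR3 (1.02, adjusted p = 0.00226). Between Mut_IDR3 and dIDR3, where MMP24 differed most between mutants, MMP24OS differed by −0.19 on the log2 scale (95% interval −0.63 to 0.25, adjusted p = 0.621).

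MMP1 (chr11:102789920-102798160, minus strand), the interstitial collagenase, was near the lower limit of the assay. The libraries held 7, 10 and 36 counts in WT, 41, 18 and 20 in Mut_IDR3, 37, 32 and 26 in dIDR3, and 37, 60 and 32 in GFP. As levels these were 0.193 to 0.869 CPM in WT, 0.464 to 1.32 CPM in Mut_IDR3, 0.629 to 0.923 CPM in dIDR3 and 0.740 to 1.86 CPM in GFP. All groups overlapped, through WT replicate 3 in the case of WT and GFP. The log2 fold change in WT against GFP was −1.40 ± 0.59 SE (95% interval −2.66 to −0.15, adjusted p = 0.0557, edgeR), not called. It was called in 8 of 26 alternatives, among them DESeq2 (adjusted p = 0.0333) and the fits without WT replicate 3 (log2 −2.31, adjusted p = 0.00713), GFP replicate 3 (log2 −1.67, adjusted p = 0.0421) or Mut_IDR3 replicate 1 (adjusted p = 0.0422). Against WT, MMP1 was at log2 0.69 in Mut_IDR3 (adjusted p = 0.378) and 0.79 in dIDR3 (adjusted p = 0.283), the last called without WT replicate 3 (log2 1.69, adjusted p = 0.0386).

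MMP9 (chr20:46008908-46016561, plus strand), a gelatinase, did not pass the filter on low counts. It had 4, 4 and 0 counts in WT, 0 counts in every library of Mut_IDR3 and of dIDR3, and 2, 0 and 14 counts in GFP. The ratio of WT to GFP counts per total was 0.464 (95% interval 0.172 to 1.15, covering counting error only), so a difference was not detectable at this depth. A count of 0 over the 3 libraries allows up to 0.0268 CPM in Mut_IDR3 and 0.0253 CPM in dIDR3 at 3 counts, and 14 of the 16 GFP counts came from GFP replicate 3. These floors cover counting error only, and a count near 0 here need not mean that a gene is silent.

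TIMP1 (chrX:47582313-47586789, plus strand), an inhibitor of most secreted metalloproteinases, rose with the membrane enzymes in WT. It was at 204, 203 and 217 CPM in WT, at 94.4, 104 and 103 CPM in Mut_IDR3, at 105, 94.3 and 110 CPM in dIDR3, and at 80.4, 82.1 and 85.9 CPM in GFP. WT libraries were highest, and the mutant libraries lay above those of GFP without overlap. TIMP1 was 2.51-fold higher in WT than in GFP (log2 1.33 ± 0.06 SE, adjusted p = 4.98e-10, edgeR). The level was 2.07-fold lower in Mut_IDR3 than in WT (log2 −1.05, adjusted p = 8.53e-09) and 2.01-fold lower in dIDR3 than in WT (log2 −1.01, adjusted p = 8.80e-09). Against GFP it was 1.21-fold higher in Mut_IDR3 (log2 0.28, adjusted p = 0.00704) and 1.25-fold higher in dIDR3 (log2 0.32, adjusted p = 0.00162). With the GC trend removed the value in Mut_IDR3 was 0.11 and no longer called (adjusted p = 0.256). The gene lies within SYN1 on the opposite strand, which shares no exonic base with it and had 0 counts.

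**Figure D2:**
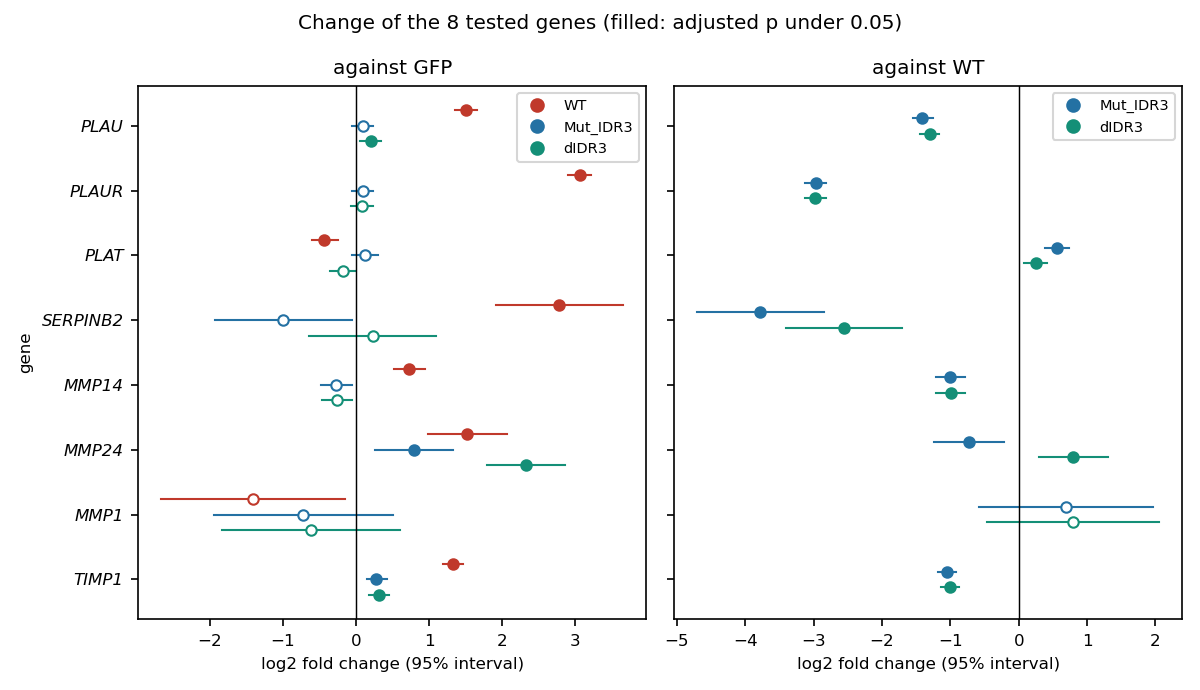
Log2 fold change of the 8 tested genes with its 95% interval, at left in WT, Mut_IDR3 and dIDR3 against GFP, at right in Mut_IDR3 and dIDR3 against WT. Filled points passed an adjusted p of 0.05 and open points did not; PLAUR stands at 3.06 in WT against GFP and at −2.97 and −2.98 in the mutants against WT, and MMP24 is at −0.73 in Mut_IDR3 and 0.80 in dIDR3 against WT.

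Levels were compared between genes per kb of the union of annotated exons (GENCODE), which includes rare isoforms. In WT the order was TIMP1 (135 ± 5.00 CPM per kb, SD, n = 3), MMP14 (85.6 ± 15.1), PLAUR (61.9 ± 2.71), PLAU (61.7 ± 2.40), PLAT (3.27 ± 0.138), SERPINB2 (1.97 ± 0.555), MMP24 (1.08 ± 0.322) and MMP1 (0.230 ± 0.185). PLAUR and PLAU did not differ beyond their spread. In Mut_IDR3 it was TIMP1 (65.2 ± 3.42), MMP14 (42.9 ± 2.55), PLAU (23.3 ± 1.8), PLAUR (7.89 ± 0.401), PLAT (4.81 ± 0.334), MMP24 (0.652 ± 0.139), MMP1 (0.381 ± 0.249) and SERPINB2 (0.140 ± 0.0628), where MMP24 and MMP1 lay within their spread, as did MMP1 and SERPINB2. dIDR3 had the same order with MMP1 (0.403 ± 0.0764) and SERPINB2 (0.334 ± 0.0501) within their spread. In GFP it was TIMP1 (53.7 ± 1.84), MMP14 (51.6 ± 2.94), PLAU (21.8 ± 0.776), PLAUR (7.44 ± 0.673), PLAT (4.41 ± 0.358), MMP1 (0.622 ± 0.293), MMP24 (0.376 ± 0.0685) and SERPINB2 (0.279 ± 0.175). TIMP1 and MMP14 lay within their spread of each other, as did MMP1, MMP24 and SERPINB2. MMP9 was last in every group, at 0.0326 CPM per kb in WT, 0 in both mutants and 0.0544 CPM per kb in GFP. The means changed places with the exons counted. With only the transcripts of the basic annotation, a setting added after the data were seen, PLAUR in WT was at 125 ± 5.50 CPM per kb, beyond the spread from PLAU (67.8 ± 2.64) and within it from MMP14 (102 ± 18.1). In GFP, MMP14 (61.7 ± 3.51) and TIMP1 (56.8 ± 1.94) were again within their spread.

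Proteases and inhibitors were also read against each other within each library, as a log2 ratio of counts in which library scaling drops out. MMP14 over TIMP2 was at 1.48, 1.17 and 1.58 in WT, at 1.25, 1.29 and 1.07 in Mut_IDR3, at 1.19, 1.20 and 1.03 in dIDR3, and at 1.95, 1.99 and 1.98 in GFP. GFP lay above all other libraries. The 3 groups with TFAP2β overlapped, and the difference of WT from GFP was −0.57. MMP1 over TIMP1 had group means of −9.08 ± 1.03 in WT, −7.22 ± 0.93 in Mut_IDR3, −7.01 ± 0.36 in dIDR3 and −6.17 ± 0.69 in GFP (SD, n = 3), and WT lay below the other groups without overlap. The gap was narrow, from −7.94 in WT replicate 3 to −7.76 in Mut_IDR3 replicate 3, and rests on 7 to 60 MMP1 counts a library. MMP1 alone overlapped between all groups, while TIMP1 alone set WT apart from the others. Exact permutation tests gave p = 0.1 for WT against GFP in these ratios, the smallest that 3 against 3 libraries allow, so the ratios are a description.

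**Figure D3:**
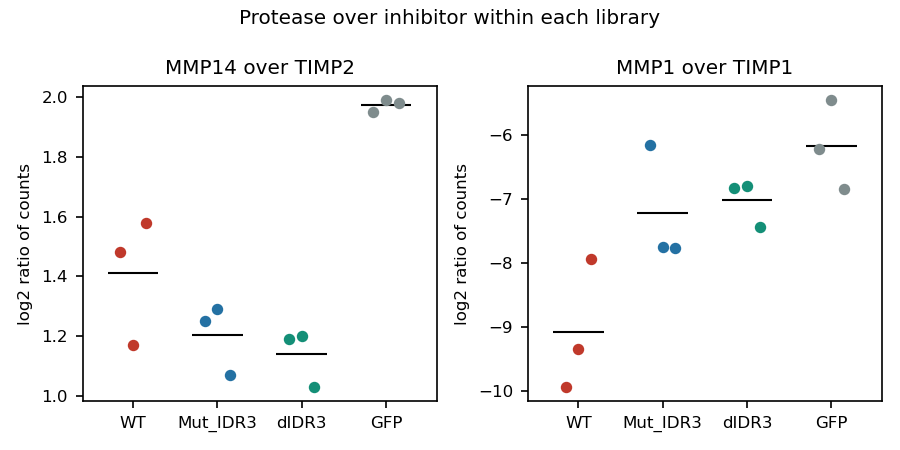
Log2 ratio of the counts of a protease to those of an inhibitor in each library (points; the line is the mean of 3), for MMP14 over TIMP2 and MMP1 over TIMP1, in the order WT, Mut_IDR3, dIDR3 and GFP. GFP is highest for MMP14 over TIMP2, at 1.95 to 1.99, and WT is lowest for MMP1 over TIMP1.

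Other genes of the plasminogen system moved in both directions. Of 20 such genes 14 were tested. In WT against GFP 9 were higher and 3 lower, where 27.7% of all genes were higher and 27.1% lower. The median log2 fold change was 0.34, beside −0.01 over all genes. Higher in WT were SERPINE2 (log2 1.68), which encodes protease nexin-1, THBS1 (1.16), the matrix protein thrombospondin-1, and S100A10 (0.65), a plasminogen receptor subunit that pairs with annexin A2. In Mut_IDR3 against WT 3 were higher and 9 lower (median −0.38), and in dIDR3 against WT 2 higher and 7 lower (median −0.22). Of all genes 23.2% were higher and 20.9% lower in Mut_IDR3 against WT, and 27.2% and 25.0% in dIDR3 against WT. THBS1 was at −0.56 in Mut_IDR3 and −0.37 in dIDR3, and S100A10 at −0.56 in Mut_IDR3 and −0.77 in dIDR3. F3, tissue factor, was higher in dIDR3 than in WT (log2 0.45) and than in Mut_IDR3, where the log2 difference of Mut_IDR3 from dIDR3 was −0.65. Against GFP, 4 were higher in Mut_IDR3 and 6 were higher and 1 lower in dIDR3, and the 4 became 2 without GFP replicate 1 or GFP replicate 3. All genes called made up 21.1% in Mut_IDR3 against GFP and 29.0% in dIDR3 against GFP. The same shares apply to the lists that follow. PLG, which encodes plasminogen itself, had 0 counts in all libraries.

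Among 19 other metalloproteinase genes 9 were tested. In WT against GFP 4 were higher and 2 lower (median 0.40), where 27.7% of all genes were higher and 27.1% lower. The lower ones were MMP13 (log2 −2.52) and MMP19 (−1.01), each under 5 CPM in both groups. MMP2, gelatinase A and a substrate of MMP14, was at 36.3 ± 2.41 CPM in WT and 18.8 ± 0.0347 CPM in GFP (log2 0.95), MMP15, another membrane enzyme, at 49.3 ± 6.90 CPM in WT and 29.1 ± 0.466 CPM in GFP (log2 0.76), and MMP28, epilysin, at 19.5 ± 0.575 CPM in WT and 11.0 ± 2.14 CPM in GFP (log2 0.82; SD, n = 3). In Mut_IDR3 against WT 1 was higher and 3 lower (median 0.09), and 7 were called without WT replicate 2 or without dIDR3 replicate 3. In dIDR3 against WT 3 were lower, MMP28 (log2 −2.15), MMP2 (−0.80) and MMP15 (−0.77), and 6 were not called (median −0.29). Against GFP, 2 were higher and 1 lower in Mut_IDR3, and 2 were lower in dIDR3. The count in Mut_IDR3 was 1 in all without any single Mut_IDR3 replicate or without GFP replicate 3.

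The inhibitors and cofactors of metalloproteinases, 11 genes with 9 tested, had 6 higher and 3 not called in WT against GFP (median 0.86). The share of all genes called higher there was 27.7%. TIMP2 was 2.43-fold higher (adjusted p = 2.03e-10, edgeR), CD44, a hyaluronan receptor to which MMP14 and MMP9 can bind, 1.83-fold, and BSG, basigin, an inducer of metalloproteinases, 1.64-fold. SPOCK1, a testican, was at 11.6 ± 1.05 CPM in WT, 0.0174 ± 0.0301 CPM in Mut_IDR3, 0.193 ± 0.0930 CPM in dIDR3 and 0.152 ± 0.0840 CPM in GFP (SD, n = 3). SPARC was at 0.858 CPM in WT and at 0.220, 0.0826 and 0.129 CPM in Mut_IDR3, dIDR3 and GFP. Near the floor outside WT, SPOCK1 and SPARC passed the filter on low counts through their level in WT. Both are among the 6 higher in WT and among those lower in each mutant, and their calls there add no support. In Mut_IDR3 against WT 1 was higher and 6 lower (median −0.75), and in dIDR3 against WT 1 was higher and 8 lower (median −0.77). FURIN, the convertase that activates the membrane metalloproteinases, was at log2 −0.75 in Mut_IDR3 and −1.02 in dIDR3. Against GFP, 3 were higher and 1 lower in Mut_IDR3, and 3 higher and 2 lower in dIDR3, 3 in all without GFP replicate 3.

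Proteases outside the plasminogen and matrix metalloproteinase families gave a range for the 9 genes to be set against. Shares of all genes in WT against GFP were 27.7% higher and 27.1% lower. In WT against GFP, 4 of 9 tested ADAM and ADAMTS genes were higher and 2 lower (median 0.55), with ADAM10 (log2 −0.93) and ADAM9 (−0.72), sheddases of the cell surface, the lower ones. Of 7 tested membrane serine proteases and their inhibitors 3 were higher and 2 lower (median 0.67), with ST14, matriptase, at log2 0.80, its inhibitors SPINT1 at 1.22 and SPINT2 at 0.67, and TMPRSS4 at −1.65. Of 11 tested cathepsins and cystatins 7 were higher and 2 lower (median 0.45), with CST3, cystatin C, at 1.00. In Mut_IDR3 against WT, ADAM and ADAMTS genes had 2 higher and 3 lower, membrane serine proteases 1 higher and 5 lower, and cathepsins and cystatins 1 higher and 7 lower. In dIDR3 against WT these were 2 higher and 2 lower, 1 higher and 4 lower, and 2 higher and 7 lower. The cathepsin genes CTSL and CTSZ, usually abundant in epithelial lines, had 4 and 72 counts in all 12 libraries. A count near 0 in this table therefore need not mean that a gene is silent, and the cause was not tested.

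**Figure D4:**
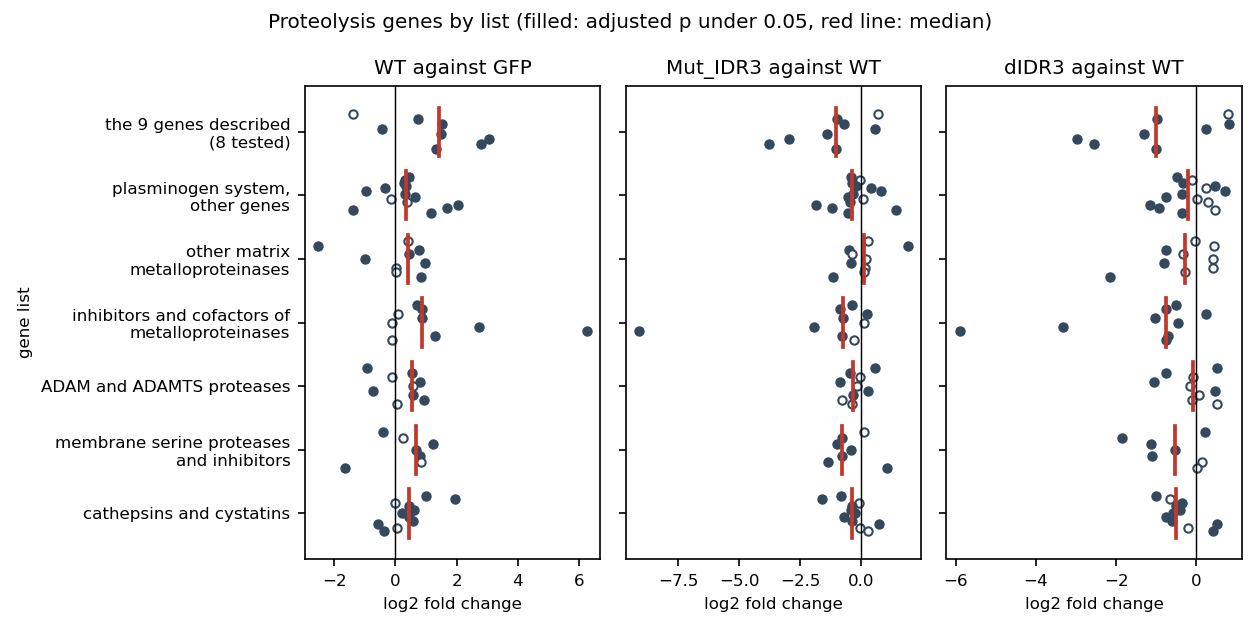
Log2 fold change of each tested gene, by list, in WT against GFP, Mut_IDR3 against WT and dIDR3 against WT; filled points passed an adjusted p of 0.05, open points did not, and the red line is the list's median. The 9 genes described (8 tested) have medians of 1.41, −1.02 and −1.0, and the points at the far right of the first panel and far left of the others are SPOCK1, which is near 0 CPM outside WT.

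The genes whose level ran most like each of the 8 tested genes were found by the root mean square difference of log2 CPM, centred on each gene's mean, over the 12 libraries and among 10074 candidates. For PLAU these were MFSD12 and GPRC5A (0.08 each, against a spread of 0.62 for PLAU itself), and for PLAUR PMAIP1 and GRB10 (0.23 each, against 1.30). For PLAT they were SYBU (0.06) and MPZL1 (0.07, against 0.22), for MMP14 MAP3K10 (0.09) and CRB3 (0.10, against 0.42), and for TIMP1 METRNL (0.07) and DCUN1D3 (0.09, against 0.51). For MMP24 they were TENM2 (0.32) and TGM2 (0.44, against 0.89), for SERPINB2 MARCKSL1 (0.45) and HIST2H2AA4 (0.57, against 1.44), and for MMP1 IFT80 (0.44) and KIF21A (0.47, against 0.80), the genes with few counts being the ones matched least closely. TENM2 was at 42.5 CPM in WT, 25.2 CPM in Mut_IDR3, 54.7 CPM in dIDR3 and 12.3 CPM in GFP, with dIDR3 highest and GFP lowest as for MMP24.

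The longest transcripts of the 9 genes covered a wide range of GC content. It was 54.0% for PLAU, 55.7% for PLAUR, 57.9% for TIMP1, 58.9% for MMP14 and 60.6% for MMP24, 41.0% for SERPINB2, 45.6% for PLAT, 43.4% for MMP1 and 62.4% for MMP9. With the trend of fold changes with GC removed, the log2 fold changes in WT against GFP were 2.77 for PLAUR, 3.17 for SERPINB2, 1.25 for PLAU, 1.18 for MMP24, 0.97 for TIMP1, 0.41 for MMP14 and −0.31 for PLAT, all 7 still called. In the same order the main fit gave 3.06, 2.78, 1.5, 1.52, 1.33, 0.73 and −0.43. The part of GC content in these changes was not tested. In Mut_IDR3 against WT the values for PLAUR, PLAU, SERPINB2, MMP14 and TIMP1 were −2.83, −1.29, −4.02, −0.82 and −0.86, all called, and in dIDR3 against WT −2.78, −1.16, −2.88, −0.77 and −0.78, all called.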

How the data were processed

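RNA of 12 KYSE150 libraries, 3 in each of 4 groups, was measured as raw counts per feature, used as deposited by the authors. The submitters' processing notes list the tools Trim Galore, HISAT2 and StringTie and the genome GRCh38/hg38; versions, the counting program and its strand setting are not given in the sources used here. Features were kept by filterByExpr with the groups (14792 of 24302), scaled by TMM and tested with edgeR 4.0.16 (quasi-likelihood F test, 4 groups, 8 residual degrees of freedom, Benjamini-Hochberg over all tested features, call at adjusted p under 0.05), in R 4.3.3 with limma 3.58.1. DESeq2 1.42.0 was an alternative. CPM use TMM library sizes, per kb of GENCODE exons on GRCh38, 1-based. Ratios used a pseudocount of 0.5, and 95% intervals of log2 fold changes are those of the fit. The libraries held 30.7 to 43.5 M counts. The interval of the MMP9 count ratio and the floors of 3 counts cover counting error only.

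The members and lists were chosen with earlier results of these data known. All members are named, and from each list up to 4 called genes per comparison with the lowest adjusted p and at least 5 CPM, with further genes (SPOCK1, SPARC, MMP13, MMP19, CTSL, CTSZ, PLG, C10orf55, SERPINB10, MMP24OS, SYN1) chosen after their values were seen. Results of 2 further listed genes and 1 planned ratio are not reported here. A planned count of members opposite in both mutants was left out, because those comparisons share libraries. Scripts were first tested on simulated data in which 200 genes changed.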

Additional observations from a re-analysis of the deposited data

Results flagged for a closer look

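Mut_IDR3 and dIDR3, set against the same WT and GFP libraries, differed in 2 of the 8 tested genes, by the test of the difference itself. For MMP24 the log2 fold change of Mut_IDR3 against dIDR3 was −1.53 (adjusted p = 0.00118, edgeR's quasi-likelihood test), lower in 3 of 3 Mut_IDR3 libraries than in every dIDR3 library. For PLAT it was 0.31 (adjusted p = 0.026), higher in 3 of 3 Mut_IDR3 libraries than in every dIDR3 library. This call of PLAT was lost without Mut_IDR3 replicate 2 or 3 or any of the dIDR3 replicates. Over all tested genes 10.8% differed between these groups.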

How the results depend on the processing

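Of 156 counts of called members under alternatives, 136 stayed within 1.5 times the reported count, as did 567 of 576 counts for the gene lists, whose alternatives were added after the data were seen; the 84 ratio results moved by less than the spread between replicates and carry no test that could pass a threshold. Of 1248 results for single members, 1124 kept direction and call, 60 lost a call, 34 gained one and 30, none of them called, changed sign. The 7 members called in WT against GFP kept their calls in all alternatives except a minimum of 2-fold, which leaves out PLAT and MMP14 by its construction.

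The 2 members called in Mut_IDR3 against GFP became 1 with limma-voom, the replicate block, the GC trend removed (alone or with the block) or an adjusted p under 0.01, 0 with a minimum of 2-fold (the largest change was SERPINB2 at −0.99, unadjusted p = 0.0393), and 1 to 3 with single libraries left out. A minimum of 2-fold left 1 called in dIDR3 against GFP, 4 in Mut_IDR3 against WT, 4 in dIDR3 against WT and 1 in Mut_IDR3 against dIDR3; the last was also 1 at an adjusted p under 0.01, and 1 to 3 with single libraries left out. Over the fits that leave out 1 library, called genes numbered 2 to 4 of the plasminogen list and 1 to 3 of the other metalloproteinases in Mut_IDR3 against GFP, 5 to 7 of the other metalloproteinases in Mut_IDR3 against WT, and 3 to 6 of the inhibitors in dIDR3 against GFP.

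Changes of sign were all close to 0. With the GC trend removed, with or without the block, PLAU was at −0.04 and PLAUR at −0.06 in Mut_IDR3 against GFP, PLAUR at −0.01 in dIDR3 against GFP and at −0.05 in Mut_IDR3 against dIDR3. MMP14 in Mut_IDR3 against dIDR3 was at 0.01 with median-ratio scaling, a filter of 1 CPM in 3 libraries, DESeq2, only the 2 groups, no mitochondrial mRNAs or named genes only, at 0.03 with upper-quartile scaling and 0.00 with no filter. With single libraries left out, Mut_IDR3 against dIDR3 ranged from −0.04 to 0.04 for PLAUR, −0.75 to 0.16 for MMP1, −0.04 to 0.05 for MMP14 and −0.09 to 0.02 for TIMP1, and SERPINB2 in dIDR3 against GFP from −0.06 to 0.88. The causes were not tested.

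The replicate numbers did not pair the libraries (correlations of same-numbered deviations from −0.07 to 0.08, 18 in all), so the block changes only the model: it left 2795 genes called in Mut_IDR3 against GFP and 1206 in Mut_IDR3 against dIDR3, in place of 3114 and 1594. Depth limits MMP9, MMP1 and SERPINB2, with 0 to 221 counts a library, and strand limits MMP24, PLAU, MMP9 and MMP1. Exons of SLC12A5-AS1 share 430 bases (18.4%) with those of MMP9, and exons of WTAPP1 150 bases (7.6%) with those of MMP1. SLC12A5-AS1 and WTAPP1 lie on the opposite strand and are not among the features counted.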
